A study of Mus musculus with 2 samples.

Results

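Integrins, laminins, collagens, their basement membrane partners and the ADAMTS proteases make up much of the machinery by which cells hold on to, build and trim the extracellular matrix. The genes described here were taken by symbol: the integrin subunits other than Itgam and Itgb2, the laminin chains, the collagen chains, the nidogens Nid1 and Nid2, perlecan (Hspg2), agrin (Agrn), Sparc, Sparcl1 and the ADAMTS genes. The rule found 104 of the 32531 gene symbols listed, of which 24 were integrins, 11 laminins, 44 collagens, 19 ADAMTS genes and 6 the remaining basement membrane and matricellular members. The rule itself reads gene symbols alone.

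RNA came from the dorsal striatum of mice that took cocaine intravenously by self-administration in long-access sessions. The escalating group and the nonescalating group had 1 library each. All animals carried the Drd1-TRAP transgene of line CP73, in which the Drd1 regulatory region drives an EGFP-tagged Rpl10a ribosomal protein, on a mixed background (FVB/N-Swiss Webster) bred into C57BL/6 over 9 generations or more. Both libraries were input, that is, total RNA from all cells of the dissected tissue, so the cell type that carries the tag did not limit what was measured. The number of animals in each library and their ages were not given in the sources used here, and a group without cocaine was not analysed here.

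An integrin is a pair of membrane-spanning subunits, 1 alpha and 1 beta, that grips a matrix ligand outside the cell and couples to the actin cytoskeleton inside it. Laminins are trimers of an alpha, a beta and a gamma chain. With type IV collagen, nidogens, perlecan and agrin they form the basement membrane, which in brain surrounds blood vessels and meets the endfeet of astrocytes. Away from vessels, brain matrix holds little fibrillar collagen and is rich in proteoglycans, which several ADAMTS proteases cut.

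The libraries held 9548358 (escalating) and 9376097 (nonescalating) reads assigned to genes. Reads that could belong to more than 1 gene made up 8.06% (escalating) and 18.9% (nonescalating) of all reads listed. Reads that matched no annotated gene made up 28.6% and 18.1%. With 1 library per group there is no replicate check and no p-value, each value sets library against library rather than condition against condition, and the bracketed intervals are exact 95% counting intervals that cover counting error only. CPM is a gene's count in a library scaled by TMM to 1000000 reads, a gene was measured with at least 50 counts over both libraries, and it was called when it differed by at least 1.5-fold with an interval that excluded 1. The libraries stood apart in glial RNA. All 20 microglia markers were called lower in the escalating library, where they summed to 45.1 CPM against 1916 in the nonescalating library, with Trem2 and Gpr34 at 0. All 16 measured astrocyte markers of 17 were called lower (2424 against 16155 CPM), as were 11 of 14 measured endothelial markers (146 against 273 CPM) and 12 of 16 mature oligodendrocyte markers (1758 against 4472 CPM). Markers of striatal projection neurons, which check the tissue label, were all measured and summed to 10612 and 9834 CPM, with 2 of 18 called lower and 1 higher. Over all measured genes 17.1% were called lower and 9.36% higher. With total-read scaling the calls were 20 microglia, 14 astrocyte, 7 endothelial and 8 oligodendrocyte markers lower, and 1 projection neuron marker lower and 6 higher. For projection neuron markers these shares, 5.56% lower and 33.3% higher, stand beside 9.4% and 31.5% of all measured genes with that scaling. In bulk tissue, fewer cells of a type and less RNA per cell cannot be told apart.

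Of the 104 genes, 47 were measured. Among them 25 were called lower in the escalating library (53.2%, against 17.1% of all 12213 measured genes) and 3 were called higher (6.38%, against 9.36%). The median log2 ratio of escalating over nonescalating was -0.77, beside 0.02 for all measured genes, and 38 of the 47 ratios were below 0. Scaling to total reads moved the median of all measured genes to 0.38, and then 13 of the 47 were called lower (27.7%, against 9.4% of all measured genes) and 5 higher (10.6%, against 31.5%), with a median of -0.42. The 13 were all among the 25, and the 3 called higher kept that call. Sparc and Sparcl1 held 64.1% of the summed CPM of the 104 genes in the nonescalating library and 30.4% in the escalating library. Without them 23 of 45 were called lower and 3 higher, and the median was -0.73.

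**Figure D1:**
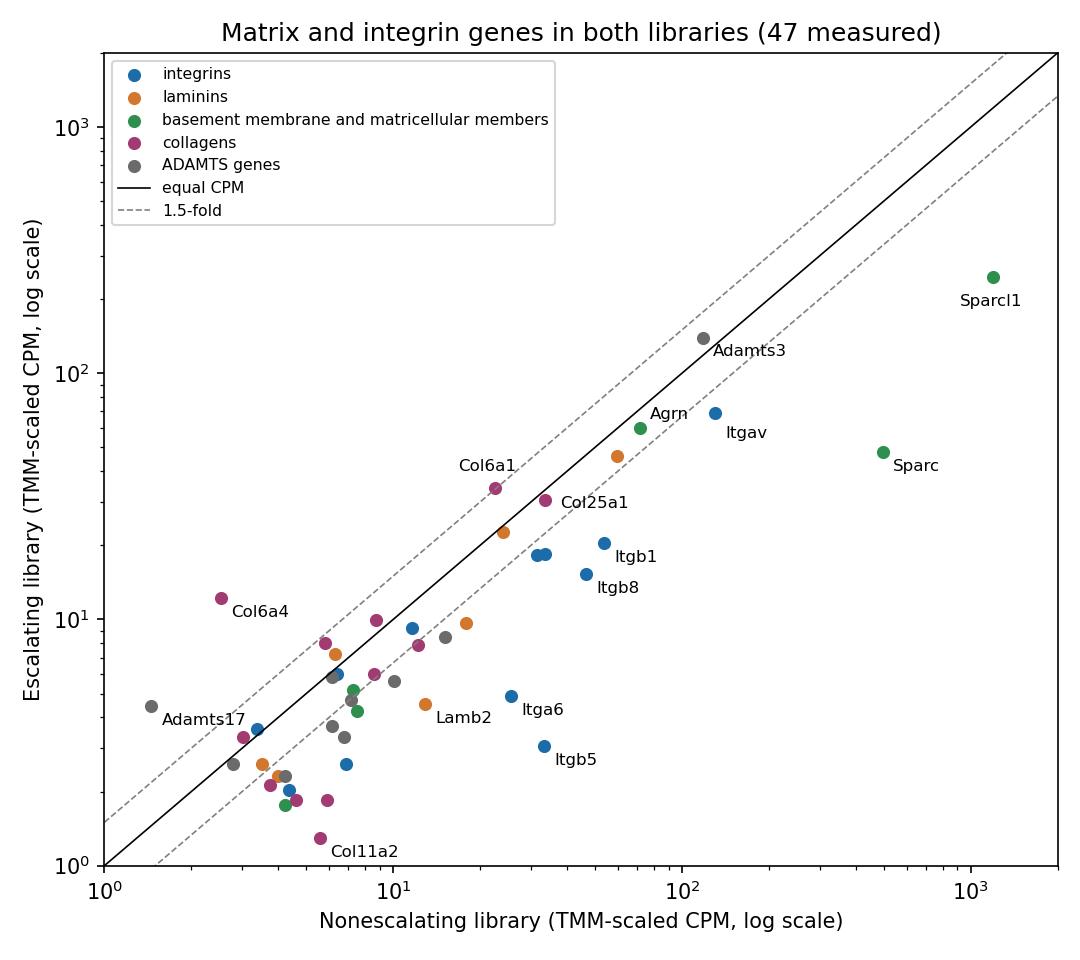
TMM-scaled CPM of the 47 measured genes in the nonescalating library (horizontal, log scale) and the escalating library (vertical, log scale), 1 point per gene, coloured by family. Most points lie under the line of equal CPM. Sparc, Sparcl1, Itgb5 and Itga6 lie farthest below it and Col6a4 farthest above it.

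The bases upstream of 5 genes are shown first, as a reference for genes called in either direction. Itgb5, the measured integrin with the lowest ratio, and Itgb1, the most abundant beta subunit per kb of exon, are beta subunit genes called lower. Adamts17, Col6a1 and Col6a4 are the 3 genes called higher. For Itgb8, the other beta subunit gene called lower, no such bases were available. Each run is the 120 bases directly before the most upstream annotated start, 5′ to 3′ on the gene's strand, from the RefSeq promoter table on build GRCm38.p6, which held 71 of the 104 genes. Capitals mark the GC box GGGCGG, the promoter motif CCAAT, the TATA motif TATAAA and the AP-1 motif TGANTCA on either strand, so a GC box read on the other strand appears as CCGCCC. The GC box occurs in 26.5% of the table's 32851 windows of this length, CCAAT in 21.3%, and the others in 6.34% and 3.41%. Of the 78 windows that belong to the genes described here, 35, 10, 4 and 2 hold them in the same order. All these windows end before the start given in the promoter table, so they can differ in position from the runs printed here.
Itgb5, chr16:33829545-33829664, plus strand: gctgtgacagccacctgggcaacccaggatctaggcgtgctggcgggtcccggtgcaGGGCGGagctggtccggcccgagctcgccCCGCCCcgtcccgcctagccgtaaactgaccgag
Itgb1, chr8:128685534-128685653, plus strand: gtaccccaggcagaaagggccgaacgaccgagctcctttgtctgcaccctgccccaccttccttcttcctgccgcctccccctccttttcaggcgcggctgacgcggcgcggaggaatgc
Adamts17, chr7:66839615-66839734, plus strand: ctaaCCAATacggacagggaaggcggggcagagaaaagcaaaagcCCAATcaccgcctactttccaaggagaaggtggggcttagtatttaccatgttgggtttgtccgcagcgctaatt
Col6a1, chr10:76726169-76726288, minus strand: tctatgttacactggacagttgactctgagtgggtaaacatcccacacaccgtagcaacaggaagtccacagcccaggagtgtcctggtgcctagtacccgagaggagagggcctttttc
Col6a4, chr9:106096784-106096903, minus strand: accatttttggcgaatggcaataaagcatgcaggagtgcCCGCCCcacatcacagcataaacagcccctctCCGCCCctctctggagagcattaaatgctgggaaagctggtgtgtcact
The runs before Itgb5 and Itgb1 were 72.5% and 66.7% G or C, with 12 and 10 CpG pairs. Those before Adamts17, Col6a1 and Col6a4 were 50.8%, 53.3% and 53.3%, with 5, 2 and 3 CpG pairs, beside medians of 54.2% and 3 over all windows in the table. GC boxes stood before a gene called lower (Itgb5) and a gene called higher (Col6a4), 2 in each, and these motifs were not in the windows of Itgb1 and Col6a1.

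Among integrins, 9 of 12 measured subunits were called lower in the escalating library (75%, against 17.1% of all measured genes) and 0 higher (against 9.36%). With total-read scaling 5 were called lower (41.7%, against 9.4%) and 0 higher (against 31.5%). The median log2 ratio was -1.0 (-0.64 with total-read scaling). Of the 4 measured beta subunits 3 were called lower. Itgb5, which pairs with the alpha v subunit to bind vitronectin (chromosome 16, 33829665 to 33949338), counted 33 reads in the escalating library and 275 in the nonescalating one, or 3.05 and 33.2 CPM. It was 10.9-fold lower in the escalating library (7.58 to 16.2). Itgb8, whose pairing with alpha v releases active TGF-beta from its latent complex (chromosome 12, 119158022 to 119238802), had 165 and 385 counts, or 15.2 and 46.5 CPM, and was 3.05-fold lower (2.54 to 3.68). Itgb1, the beta subunit shared by the widest set of alpha subunits (chromosome 8, 128685654 to 128733200), had 221 and 443 counts, or 20.4 and 53.5 CPM, and was 2.62-fold lower (2.23 to 3.09). Itgb4, the laminin-binding partner of alpha 6, had 100 and 96 counts. Its log2 ratio of -0.33 did not pass the call and became 0.03 with total-read scaling.

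The log2 ratios of the 8 measured alpha subunits ran from -2.37 to 0.09 (median -0.89), beside -3.42 to -0.33 (median -1.50) for the 4 beta subunits. With total-read scaling 2 of the 8 alpha and 3 of the 4 beta subunits were called lower. Itga6, a laminin receptor subunit (chromosome 2, 71745616 to 71858416), had 53 and 211 counts, or 4.90 and 25.5 CPM, and was 5.21-fold lower (3.84 to 7.18). Itga1, which binds collagen with beta 1, had 28 and 57 counts, or 2.59 and 6.89 CPM, and was 2.66-fold lower (1.67 to 4.35). Itga4, a receptor subunit for fibronectin and the vascular ligand VCAM-1, had 22 and 36 counts, or 2.03 and 4.35 CPM, and was 2.14-fold lower (1.23 to 3.82). Its exons share 8.04% of their bases with Cerkl on the opposite strand, and no source used here says whether counting used strand. Itgav, the alpha v subunit itself (chromosome 2, 83724397 to 83806916), had 743 and 1075 counts, or 68.7 and 130 CPM, and was 1.89-fold lower (1.72 to 2.08). Itga9, a receptor subunit for tenascin-C, counted 199 and 277, and was 1.82-fold lower (1.51 to 2.20). The fibronectin receptor subunit Itga5 was 1.73-fold lower (1.43 to 2.10), with 197 and 261 counts, or 18.2 and 31.5 CPM. The ratios of Itga4, Itgav, Itga9 and Itga5 kept their sign under total-read scaling but no longer passed the call. The laminin receptor subunit Itga3 (65 and 53 counts) and the collagen receptor subunit Itga11 (39 and 28 counts) had log2 ratios of -0.09 and 0.09 and were not called.

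Per kb of annotated exon, alpha v was the most abundant alpha subunit in both libraries, at 12.1 CPM per kb in the nonescalating and 6.39 in the escalating library. Among beta subunits, Itgb1 was the most abundant in both, at 13.1 and 5.0 CPM per kb. The order behind it changed. In the nonescalating library Itgb5 came next at 9.35 CPM per kb, then Itgb8 at 4.21 and Itgb4 at 1.65, whereas in the escalating library Itgb8 stood at 1.38, Itgb4 at 1.32 and Itgb5 at 0.858. The 12 integrins that were not measured include the leukocyte subunits Itgal, with 18 counts in each library, and Itgad, Itgae and Itgax, with at most 4 in either. Itgb3, the platelet and vascular beta 3 subunit, had 0 and 29 counts. Set against a floor of 3 counts in the escalating library it was 12.6-fold lower there, and 9.64-fold is the low end of its counting interval. Itga7, a laminin receptor subunit of muscle, had 1 and 17 counts and Itga8 had 19 and 5. These 3 were chosen after their values were seen.

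**Figure D2:**
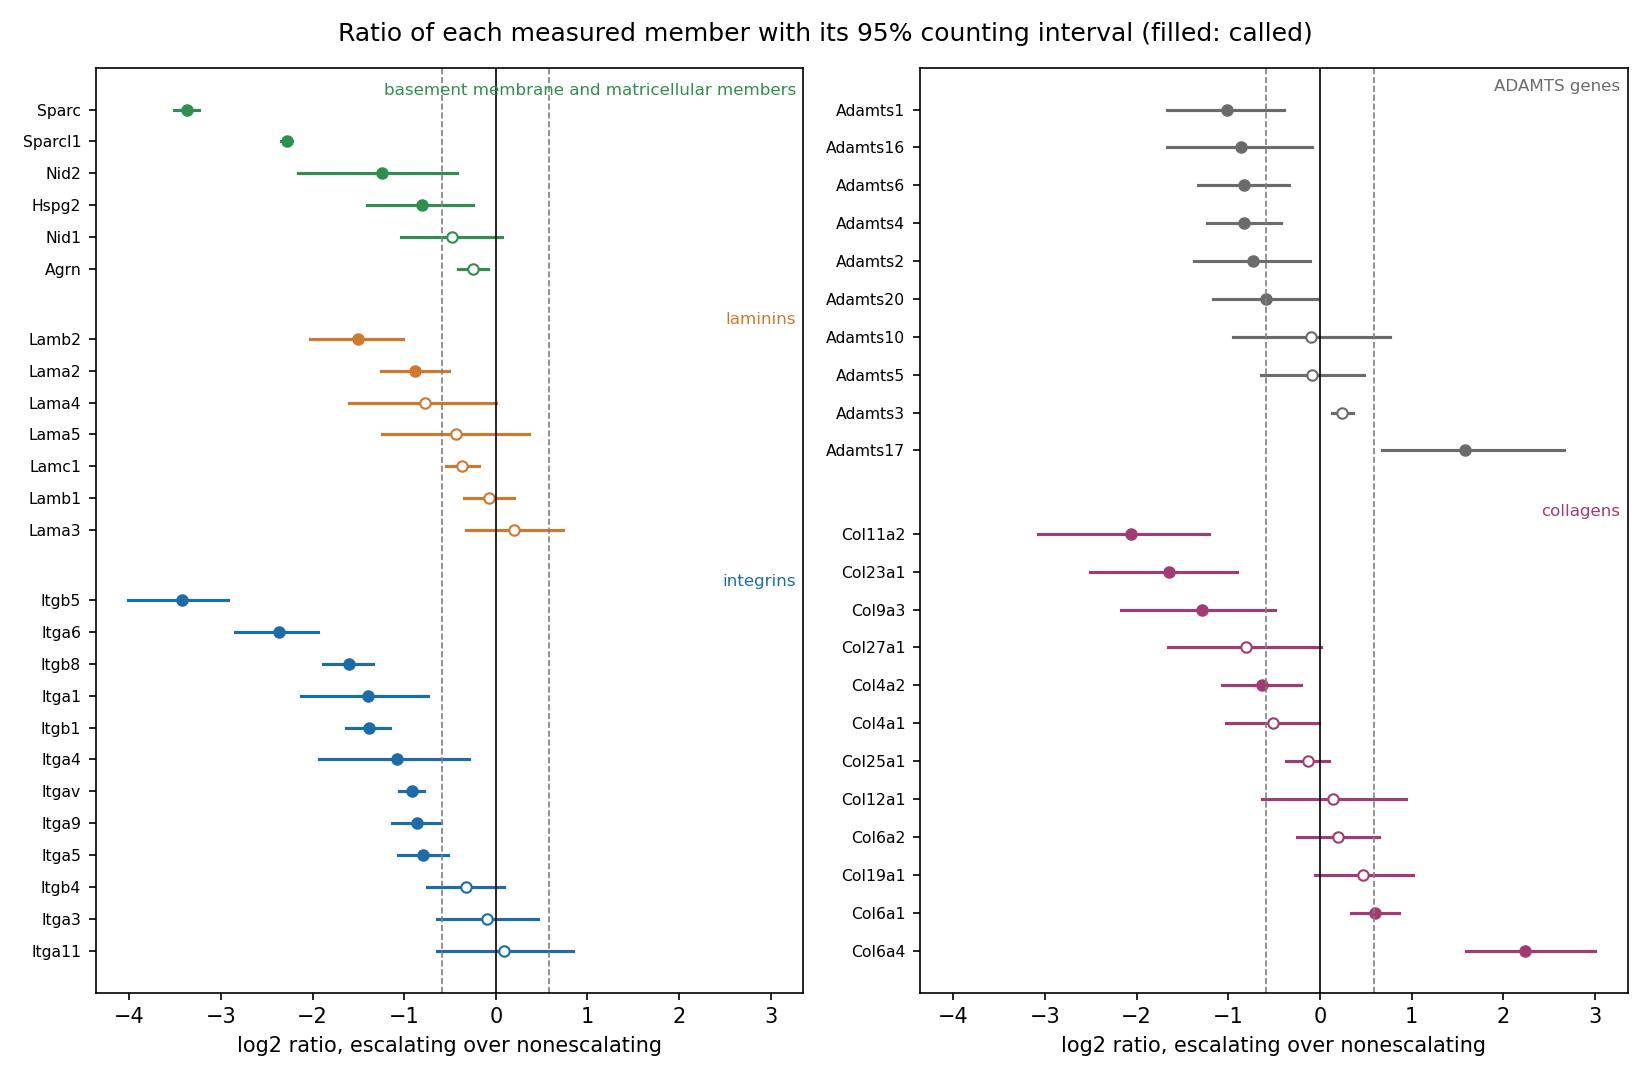
log2 ratio of escalating over nonescalating for each measured gene (points, filled where called) with its 95% counting interval (lines), by family. Dashed lines mark 1.5-fold in either direction. Sparc and Itgb5 have the lowest ratios, at -3.37 and -3.42, and Col6a4 the highest, at 2.24.

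The widest gaps in level were those of the matricellular proteins, which are secreted into the matrix and modulate how cells attach to it. Sparc, a collagen-binding glycoprotein made in brain mainly by glia and vessels (chromosome 11, 55394500 to 55423183), counted 518 reads in the escalating library and 4111 in the nonescalating one, or 47.9 and 497 CPM. It was 10.4-fold lower (9.47 to 11.4). Its relative Sparcl1, also called hevin, is secreted by astrocytes and promotes synapse formation (chromosome 5, 104079111 to 104113733). It had 2667 and 9916 counts, or 246 and 1199 CPM, and was 4.86-fold lower (4.66 to 5.08). Per kb of exon Sparcl1 was the most abundant of the 104 genes in both libraries, at 83.9 CPM per kb (escalating) and 408 (nonescalating). Sparc ranked next in the nonescalating library at 131 CPM per kb, but at 12.6 it ranked below Adamts3 in the escalating library. Beside these values, the microglia markers summed to 45.1 and 1916 CPM and the astrocyte markers to 2424 and 16155 CPM; the part of glial RNA in the differences of Sparc, Sparcl1 and the integrins was not tested.

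Nidogens and perlecan, which tie the laminin network to collagen IV, were lower by less. Nid2 had 19 and 35 counts, or 1.76 and 4.23 CPM, and was 2.41-fold lower (1.34 to 4.46). Hspg2 had 46 and 62 counts, or 4.25 and 7.49 CPM, and was 1.76-fold lower (1.18 to 2.64), a call that was lost with total-read scaling. Nid1 had 56 and 60 counts, or 5.18 and 7.25 CPM, and its ratio of 1.40-fold lower (0.957 to 2.05) was not called. Agrn, the heparan sulfate proteoglycan that organises acetylcholine receptors at the neuromuscular junction and is also made by neurons (chromosome 4, 156165290 to 156197488), was read far more deeply, at 650 and 591 counts, or 60.1 and 71.4 CPM. Its ratio of 1.19-fold lower (1.06 to 1.33) was under the threshold. In this family 4 of 6 genes were called lower (66.7%, against 17.1% of all measured genes) and 0 higher (against 9.36%). With total-read scaling 3 were called lower (50%, against 9.4%) and 0 higher (against 31.5%). The median log2 ratio was -1.03 (-0.67 with total-read scaling).

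Of laminin chains, 2 of 7 measured were called lower (28.6%, against 17.1% of all measured genes) and 0 higher (against 9.36%). With total-read scaling 1 was called lower (14.3%, against 9.4%) and 0 higher (against 31.5%). The median log2 ratio was -0.43 (-0.08 with total-read scaling). Lamb2, the beta 2 chain of vascular and synaptic laminins (chromosome 9, 108479736 to 108490530), had 49 and 107 counts, or 4.53 and 12.9 CPM, and was 2.86-fold lower (2.02 to 4.09). Lama2, the alpha 2 chain, which in brain lies where astrocyte endfeet meet the vessel (chromosome 10, 26980036 to 27619758), had 105 and 148 counts, or 9.70 and 17.9 CPM, and was 1.84-fold lower (1.43 to 2.39), a call lost with total-read scaling. The endothelial alpha chains Lama4 and Lama5 were thinly read. Lama4 had 25 and 33 counts, or 2.31 and 3.99 CPM (1.73-fold lower, 0.996 to 3.03), and Lama5 had 28 and 29, or 2.59 and 3.51 CPM (1.35-fold lower, 0.778 to 2.36). Both intervals included 1, and neither gene was called.

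The other chains of the common trimers differed little. Lamc1, the gamma 1 chain found in most laminins (chromosome 1, 153218922 to 153332786), had 500 and 492 counts, or 46.2 and 59.5 CPM, a ratio of 1.29-fold lower (1.13 to 1.46) that was not called. Lamb1, the beta 1 chain, had 246 and 198 counts, or 22.7 and 23.9 CPM (1.05-fold lower, 0.869 to 1.27). Lama3, a chain of epithelial laminin, had 78 and 52 counts, or 7.21 and 6.29 CPM (1.15-fold higher, 0.797 to 1.66). Per kb of exon, gamma 1 was the most abundant chain in both libraries, at 7.19 CPM per kb in the nonescalating and 5.59 in the escalating library. The beta chains stood near each other in the nonescalating library, with 2.41 for Lamb1 and 2.13 for Lamb2, and apart in the escalating library, with 2.29 and 0.745. The alpha chains were the least abundant, Lama2 leading in the nonescalating library at 1.09 and Lama3 in the escalating library at 0.671. Lama1, Lamb3 and Lamc3 were not measured, with at most 23 counts in either library.

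**Figure D3:**
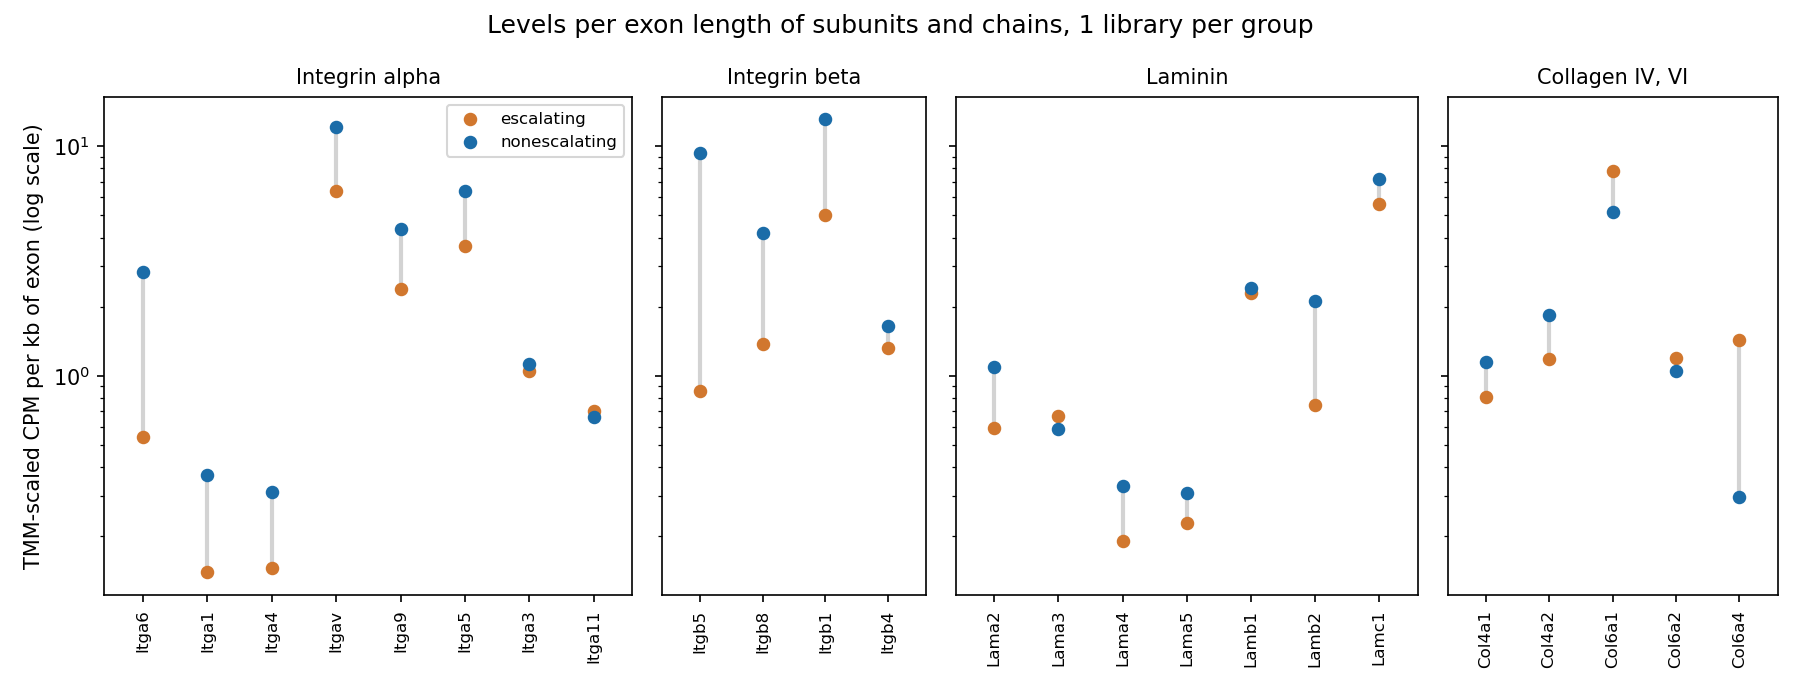
TMM-scaled CPM per kb of annotated exon (log scale) for measured integrin subunits, laminin chains and collagen IV and VI chains, with 1 point per library joined by a grey line. The longest gap is that of Itgb5, at 0.858 (escalating) and 9.35 (nonescalating); Col6a1, Col6a2 and Col6a4 are the collagen chains whose escalating point lies above.

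Collagens went both ways, with 4 of 12 measured chains called lower (33.3%, against 17.1% of all measured genes) and 2 higher (16.7%, against 9.36%). With total-read scaling 3 were called lower (25%, against 9.4%) and 3 higher (25%, against 31.5%). The median log2 ratio of the collagens was -0.32, beside 0.02 for all measured genes. With total-read scaling it was 0.04, beside 0.38. Its sign thus depended on the scaling, while it lay below the median of all measured genes under both. Collagen VI, a beaded filament that anchors cells to the basement membrane, held the 2 chains called higher. Col6a4 (chromosome 9, 105989454 to 106096783) counted 132 reads in the escalating library against 21 in the nonescalating one, or 12.2 and 2.54 CPM, and was 4.81-fold higher (3.02 to 8.02). Col6a1 (chromosome 10, 76708792 to 76726168) had 371 and 187 counts, or 34.3 and 22.6 CPM, and was 1.52-fold higher (1.27 to 1.82), just past the threshold. Its assembly partner Col6a2 had 108 and 72 counts, or 9.98 and 8.70 CPM, and its ratio of 1.15-fold higher (0.843 to 1.57) was not called. The long chains Col6a3 (9 and 12 counts), Col6a5 (12 and 30) and Col6a6 (5 and 2) were not measured.

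Chains of other collagen classes were called lower on few reads. The fibrillar chain Col11a2 (chromosome 17, 34039437 to 34066685) had 14 and 46 counts, or 1.29 and 5.56 CPM, and was 4.30-fold lower (2.32 to 8.46). The transmembrane collagen Col23a1 (chromosome 11, 51289920 to 51583918) had 20 and 49 counts, or 1.85 and 5.92 CPM, and was 3.20-fold lower (1.87 to 5.69). Col9a3, a chain of the fibril-associated collagen IX that shares 6.07% of its exon bases with Tcfl5 on the opposite strand, had 20 and 38 counts, or 1.85 and 4.59 CPM, and was 2.48-fold lower (1.41 to 4.51). Col27a1, another fibrillar chain, counted 23 and 31, with a log2 ratio of -0.80 whose interval reached 0.01.

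The basement membrane chains Col4a1 and Col4a2 lie head to head on chromosome 8, with starts at 11312826 on the minus and 11312805 on the plus strand, so that their first exons share 22 bases. Col4a1 had 65 and 71 counts, or 6.01 and 8.58 CPM, and was 1.43-fold lower (1.01 to 2.03), under the threshold. Col4a2 had 85 and 101 counts, or 7.86 and 12.2 CPM, and was 1.55-fold lower (1.15 to 2.10), a call lost with total-read scaling. Their intervals overlap over most of their length. Col25a1, a transmembrane collagen made by neurons and found in amyloid plaques (chromosome 3, 130131501 to 130599877), had 331 and 278 counts, or 30.6 and 33.6 CPM. Its ratio of 1.10-fold lower (0.933 to 1.29) was not called. The fibril-associated chains Col12a1 (36 and 25 counts) and Col19a1 (87 and 48 counts) had log2 ratios of 0.14 and 0.47 and were not called, although Col19a1 was called higher with total-read scaling.

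The remaining 32 collagen genes were not measured. The chains of the main fibrillar collagens of connective tissue were among them: Col1a1 had 16 counts in each library, Col1a2 13 and 31, and Col3a1 3 and 2. Col15a1, a collagen of vascular basement membranes, had 0 and 18 counts and was chosen after its values were seen. Set against the floor of 3 counts it was 7.85-fold lower, and 5.75-fold is the low end of its counting interval. Col13a1, Col22a1 and Col24a1 had no count in the escalating or the nonescalating library, which (at 3 counts) allows up to 0.277 CPM in the former and 0.363 in the latter. Markers of meningeal and perivascular fibroblasts, a source of fibrillar collagen, were also sparse, with 3 of 14 measured, 1 called lower and 1 higher, and sums of 161 and 157 CPM.

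Among ADAMTS genes 6 of 10 measured were called lower and 1 higher, beside 17.1% and 9.36% of all measured genes. The median log2 ratio was -0.66. With total-read scaling the median was -0.30, and 1 was lower (10%) and 2 higher (20%). The shares of all measured genes were then 9.4% lower and 31.5% higher, so the share called lower was near that of all genes. Adamts1, a protease that cuts the proteoglycans aggrecan and versican (chromosome 16, 85793827 to 85803113), had 36 and 56 counts, or 3.33 and 6.77 CPM, and was 2.03-fold lower (1.32 to 3.18). Adamts1 was the gene still called lower after scaling to total reads. Adamts4, which cuts aggrecan and brevican, had 92 and 125 counts, or 8.50 and 15.1 CPM, and was 1.78-fold lower (1.35 to 2.35). The aggrecanase gene Adamts5, which lies next to Adamts1 on chromosome 16, counted 63 and 51, a log2 ratio of -0.08 that was not called. Adamts6 and Adamts16 were 1.78-fold (1.26 to 2.52) and 1.83-fold lower (1.07 to 3.19), with 61 and 83 counts (5.64 and 10.03 CPM) and with 25 and 35 (2.31 and 4.23 CPM). The procollagen N-propeptidase gene Adamts2 was 1.67-fold lower (1.08 to 2.59), with 40 and 51 counts. Adamts20, with 51 and 59 counts, was just past the threshold at 1.51-fold lower (1.02 to 2.25).

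Adamts3 stood out for its level. It encodes a procollagen N-propeptidase that also processes VEGF-C and cleaves reelin (chromosome 5, 89677087 to 89883334), and it had 1512 and 977 counts, or 140 and 118 CPM. Its ratio of 1.18-fold higher (1.09 to 1.28) was under the threshold, and with total-read scaling it was called higher, at a log2 ratio of 0.60. Per kb of exon it reached 25.7 CPM per kb (escalating) and 21.7 (nonescalating), while the next ADAMTS gene, Adamts4, reached 1.77 and 3.14. Adamts17 (chromosome 7, 66839735 to 67153171) was the ADAMTS gene called higher, at 3.06-fold (1.60 to 6.33), with 48 and 12 counts, or 4.44 and 1.45 CPM. Adamts10 counted 28 and 23, a log2 ratio of -0.10. Of the 9 ADAMTS genes that were not measured, Adamts7 and Adamts13, the latter the protease of von Willebrand factor, had no count in either library.

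Around these genes, 7 lists of other matrix and adhesion genes were described in the same way. Their shares stand beside 17.1% lower and 9.36% higher over all measured genes, or 9.4% and 31.5% with total-read scaling. Of matrix proteoglycans and their link proteins, which include the substrates of Adamts1 and Adamts4, 12 of 16 measured were called lower (75%) and 0 higher (median log2 ratio -1.22), and 9 (56.25%) and 0 with total-read scaling. The lectican Ncan, on 2228 and 6443 counts, was 3.78-fold lower (3.60 to 3.97), and Bcan, which encodes brevican, was 3.83-fold lower (3.40 to 4.31), with 382 and 1118. The versican gene Vcan, with 436 and 548 counts, was 1.64-fold lower (1.45 to 1.87), a call lost with total-read scaling. The aggrecan gene Acan had 14 and 13 counts and was not measured. Of other matrix ligands 13 of 24 were lower and 1 higher (median -0.74; scaled to total reads, 10 and 2), with Tnc, the tenascin-C ligand of the alpha 9 integrin, at 3 and 52 counts and 22.7-fold lower (7.34 to 113). Vtn, the vitronectin ligand of alpha v integrins and also a mural cell marker, was 3.60-fold lower (2.77 to 4.73) on 78 and 215 counts. Tnc and Vtn are among the 4 genes of their list with the largest ratios. Ncan, the fifth of its list, was named after its values were seen, as were Vcan and Acan.

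Of TGF-beta ligands, receptors and latency proteins 7 of 11 were called lower (63.6%) and 0 higher (median -1.23), and 6 (54.5%) and 0 with total-read scaling. Tgfb1, a latent ligand that alpha v integrins activate, was 20.1-fold lower (8.27 to 63.8) on 5 and 77 counts, and its receptor genes Tgfbr1 and Tgfbr2 were 12-fold (9.53 to 15.4) and 11.8-fold lower (8.06 to 17.8). Of matrix receptors other than integrins 10 of 16 were lower (62.5%) and 0 higher (median -0.73), which fell to 3 lower (18.75%) with a median of -0.37 under total-read scaling. They were led by Lrp4, the receptor of agrin, at 6.66-fold lower (5.26 to 8.52), with 84 and 428 counts. Of collagen-modifying enzymes 8 of 17 were lower (47.1%) and 3 higher (17.6%), with a median of -0.57. With total-read scaling 5 were lower (29.4%) and 4 higher (23.5%). The prolyl hydroxylase gene P3h2 was 5.96-fold lower (3.55 to 10.5). Of other metalloproteinases and inhibitors 7 of 22 were lower (31.8%) and 0 higher (median -0.39), or 5 (22.7%) and 0 with total-read scaling. The membrane-bound collagenase gene Mmp14 was 9.46-fold lower (5.27 to 18.4) and the inhibitor gene Timp3 5.89-fold lower (5.28 to 6.59).

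Of these 7 lists, the integrin adaptors inside the cell had the median nearest to that of all genes. Of 29 measured, 11 were lower (37.9%) and 2 higher (6.90%), or 6 (20.7%) and 3 (10.3%) scaled to total reads. The median log2 ratio of -0.24 became 0.11 with total-read scaling. Apbb1ip, which encodes an adaptor that links Rap1 to talin and is abundant in blood cells, was 14.1-fold lower (8.88 to 23.5), with 20 and 215 counts. Parvg, a parvin of blood cells, was 5.74-fold lower (3.41 to 10.2), and Tln1, one of the talins that switch integrins on, was 2.46-fold lower (2.06 to 2.94), with 193 and 363 counts. Tln2, also a talin gene, was read more deeply, at 2380 and 1634 counts, and its ratio of 1.11-fold higher (1.05 to 1.19) was not called. The 2 called higher were Ptk2b, at 1.73-fold (1.65 to 1.81), and Bcar1, at 1.81-fold (1.52 to 2.16). Fermt3, the kindlin of blood cells, had 0 and 40 counts, too few to be measured. Fermt3, Tln2, Ptk2b and Bcar1 were named after their values were seen.

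**Figure D4:**
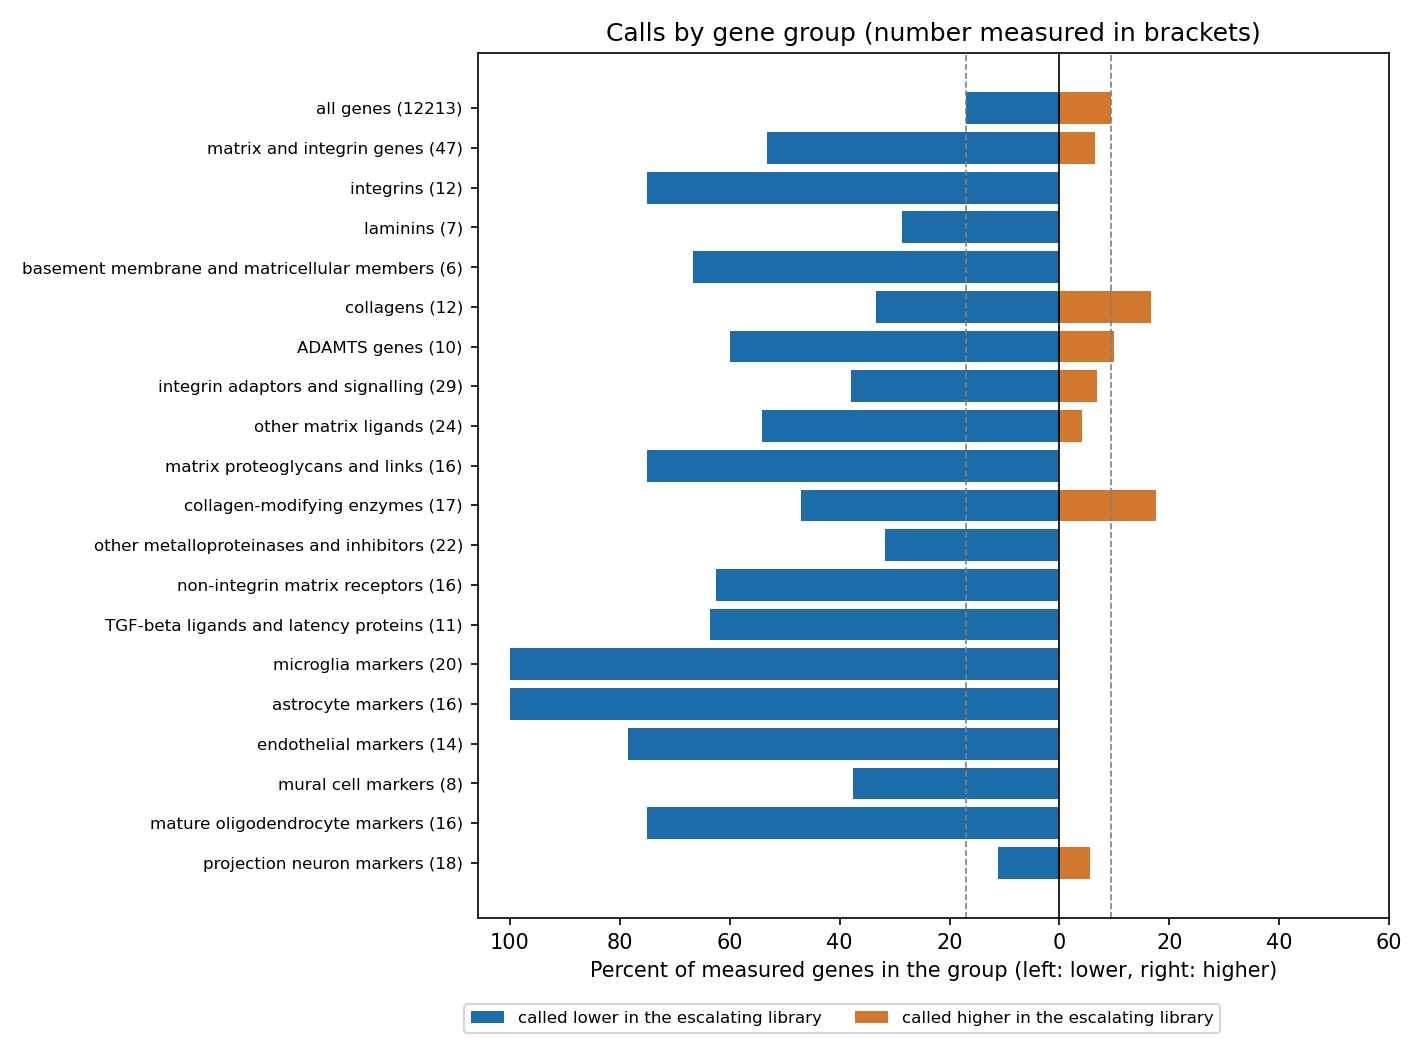
Percent of measured genes called lower (left) and higher (right) in the escalating library, for all genes, the 104 matrix and integrin genes and their families, 7 lists of other matrix genes and 6 lists of cell markers. Dashed lines mark the shares over all measured genes, 17.1% lower and 9.36% higher; microglia and astrocyte markers reach 100% lower.

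The remaining marker lists were mixed, and are given beside 17.1% lower and 9.36% higher over all measured genes. Of mural cell markers 3 of 8 measured were lower and 0 higher (83.2 and 131 CPM summed), and of oligodendrocyte precursor markers 4 of 10 were lower and 1 higher (253 and 358 CPM). Of choroid plexus and ependyma markers 0 of 3 were lower and 2 higher (36.5 and 22.2 CPM), and Ttr, the defining gene of choroid plexus, was at 0 in both libraries. Of cortical neuron markers 2 of 9 were lower and 5 higher (173 and 256 CPM), and of blood cell markers 1 of 2 was lower (14.1 and 36.7 CPM). The part of any of these cell types in the calls of the matrix and integrin genes was not tested.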

How the data were processed

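Each deposited table holds raw counts, 1 whole number of reads for every gene symbol. Per the submitters' processing notes, the authors used STAR 2.0.0e for alignment to mm10 and HTSeq for counting; strand setting and annotation were not given in the sources used here. Rows that name no gene (46.2% and 44.7% of all reads listed) were left out.

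Library sizes were scaled by TMM (edgeR 4.0.16, R 4.3.3; factors 1.13 escalating, 0.882 nonescalating). The log2 ratio used a pseudocount of 0.5 scaled to library size, and folds are ratios of CPM without it. Intervals are Clopper-Pearson intervals of each gene's split of counts. No test, edgeR's and DESeq2's included, can be made with 1 library per group. The calling code was run on simulated counts whose only noise was counting error, so variation between animals or libraries was not covered.

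Exon lengths (the union of a gene's annotated exons), positions and overlaps came from GENCODE M21 (all 104 genes matched), on the same build as mm10. Python 3.11.15 with scipy 1.17.1 was used.

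The genes and the 18 lists were chosen with earlier results of these data known. The text names every measured member, with full values for the 4 largest ratios and 2 highest levels of each family, and up to 4 genes per list, with more for the integrin adaptors. Alternatives were 3 other scalings, filters of 10 and 200 counts, a pseudocount of 5, a 2-fold threshold and, added after the data were seen, members with no exon overlap.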

Additional observations from a re-analysis of the deposited data

How the results depend on the processing

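Scaling to total reads gave 13 members called lower and 5 higher, with integrins at 5, laminins at 1 and ADAMTS genes at 1 lower and 2 higher. A filter of 200 counts left 17 members, with 11 lower and 1 higher: 1 laminin, 2 basement membrane and matricellular members, 1 ADAMTS gene and 0 collagens lower, and 1 collagen and 0 ADAMTS genes higher. A filter of 10 counts took in 75 members, with 31 called lower, 8 of them collagens, and 5 called higher, 1 of them an integrin. At 2-fold, 14 members were lower, with 1 laminin and 1 ADAMTS gene, and 2 were higher, 1 of them a collagen. Shares over all measured genes were computed only for the main setting and for total-read scaling. DESeq2 1.42.0 size factors and TMM without haemoglobin, ribosomal protein and the 10 most abundant genes gave 25 lower and 3 higher, a pseudocount of 5 gave 24 and 3, and members with no exon overlap gave 21 and 3 of 42. The median log2 ratio stayed below 0 in each of these settings, from -0.86 to -0.42, and no called member changed sign. Depth limits the members with few reads: the half-width of the log2 counting interval ran from 0.06 to 0.99, with a median of 0.53, and 57 members had too few counts to be measured. Variation between animals is not covered by any of these values. No paired analysis was possible because each group has 1 library.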
